A study of Mus musculus with 12 samples.

Results

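Double lesion LSK cells were compared with KDM6B OE LSK cells, which are 6 of the study's 12 libraries, chosen by their labels, with 3 libraries in each group and 15366 genes in the deposited table. LSK cells are the lineage-negative, Sca-1-positive, Kit-positive fraction of bone marrow, which holds the haematopoietic stem cells and multipotent progenitors, and here they were sorted from untreated mice labelled C57BL/6. Double lesion mice carried human KDM6B under the Vav promoter, Vav Cre, and floxed Tet2 on both alleles. KDM6B OE mice carried human KDM6B under the Vav promoter, and their label names neither Cre nor a floxed allele. The KDM6B transgene is therefore common to both groups, and loss of Tet2 and presence of Cre cannot be told apart in this comparison. The labels used here state no age and no sex, and do not say that the libraries came from separate mice, so each p-value measures only the spread between these libraries. The other 6 libraries, of Tet2 KO (Vav Cre with floxed Tet2 on both alleles) and Vav Cre cells, enter only where they are named.

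TET2 is an enzyme that oxidises methylated cytosine in DNA, which leads to loss of the methyl mark, and it is among the genes most often inactivated in clonal haematopoiesis and chronic myelomonocytic leukaemia. KDM6B removes the repressive methyl mark that Polycomb places on histone H3. The Vav promoter is active throughout the blood system, so both the transgene and Cre are expected in stem cells and in their descendants.

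The 4 genes with the smallest p-values were all of the MHC class II pathway and were higher in double lesion cells, led by Cd74 at 3.60-fold. Tet2 fell to 41.7% of its level in KDM6B OE cells. Cd83, Xcr1, Cd79a and Cpa3, genes of antigen-presenting cells, of B cells, and of mast cells and basophils, were also higher. Most genes on the lists of those cells did not pass, and the mast cell proteases Cma1 and Tpsb2 had negative differences. All 45 genes of G2 and M phase measured had a negative log2 difference (against 6651 of all 12653 genes tested), and 2 of them passed the test. Of the 70 genes that passed, 11 lay on chromosome 3, the chromosome of Tet2.

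Depth was even, at 25102856 to 26263370 reads on the listed genes in double lesion libraries and 22256354 to 25922064 in KDM6B OE libraries, so that 1 read was worth 0.0373 to 0.0440 CPM (counts per 1000000 reads of scaled library size). All 8 LSK markers were present in every library. Kit, the stem cell factor receptor, had 907, 558 and 603 CPM in double lesion cells, against 614, 500 and 498 CPM in KDM6B OE cells, and Cd34 had 922 to 1019 CPM in double lesion cells and 962 to 997 CPM in KDM6B OE cells. The groups separated on the first principal component, which held 36.1% of the variance, with KDM6B OE 1 nearest to the double lesion libraries. Transcripts of 4 Y-linked genes averaged 58.2 and 67.5 CPM in double lesion 1 and 3, against 0.302 CPM in double lesion 2 and 0.0615 to 0.283 CPM in the KDM6B OE libraries. Sex is thus partly confounded with group, and a fit with a term for it in effect sets double lesion 2 against the KDM6B OE libraries.

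Tet2 was measured at 37.2, 35.1 and 26.5 CPM in double lesion cells, against 64.9, 87.6 and 84.5 CPM in KDM6B OE cells. Every double lesion library lay below every KDM6B OE library, and KDM6B OE 1 was the lowest of its group. The log2 difference was -1.24 ± 0.147 (SE; limma, adjusted p = 0.00214), and an exact two-sided permutation test over the 20 possible splits gave p = 0.1, the smallest that 3 against 3 allows. The adjusted p was 0.0634 with a term for sex. Tet2 lies on chromosome 3 (mm10, 133463679 to 133545139, minus strand), where an exon overlaps Gm42567 on the other strand, and the library kit does not mark strand. Mouse Kdm6b had 9.92, 12.3 and 9.30 CPM in double lesion cells, against 12.5, 7.79 and 10.4 CPM in KDM6B OE cells. Its groups overlapped (log2 difference 0.05 ± 0.21, adjusted p = 0.942), and the human transgene is not analysed here.

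Of the 12653 genes that had more than 1 CPM in at least 3 of the 6 libraries, 70 passed the test, at an adjusted p under 0.05 (0.553% of genes tested), 49 of them higher (0.387%) and 21 lower (0.166%) in double lesion cells. The log2 difference was at least 1 in size for 32 of the higher and 9 of the lower genes. All 70 had groups that did not overlap, as had 18.9% of all genes tested (9.0% with every double lesion library above and 9.87% with every one below). The median log2 difference over all genes tested was -0.013. The count rests on how the spread is estimated: with all 12 libraries in the fit, 0 genes passed in limma (771 at an unadjusted p under 0.05) and 0 in edgeR (704), the median within-group SD of log2 values being 0.148 in double lesion and 0.146 in KDM6B OE cells, and 0.206 in Tet2 KO and 0.277 in Vav Cre cells. With a term for sex 13 genes passed, 8 of them among the 70. Without double lesion 1, 2 or 3 the counts were 20, 55 and 24, and without KDM6B OE 1, 2 or 3 they were 108, 26 and 63. Of the 66 changed genes that could be tested with each library left out in turn, 12 passed every time, and these were Cd74, H2-Ab1, H2-Aa, H2-Eb1, Cd83, Lpcat2, Plbd1, Pld4, Cd1d1, Tet2, Anxa9 and Stxbp4. Cd74, H2-Ab1, H2-Aa, H2-Eb1, Cd83, Pld4 and Anxa9 also passed with a term for sex. Lpcat2, Plbd1, Cd1d1, Tet2 and Stxbp4 did not, and of the other changed genes Pygm alone did. Counts for gene lists below are to be set beside those over all 12653 genes in the 6 libraries. These were 1770 at an unadjusted limma p under 0.05, 194 higher and 147 lower in DESeq2, and 20 higher and 9 lower in edgeR.

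**Figure D1:**
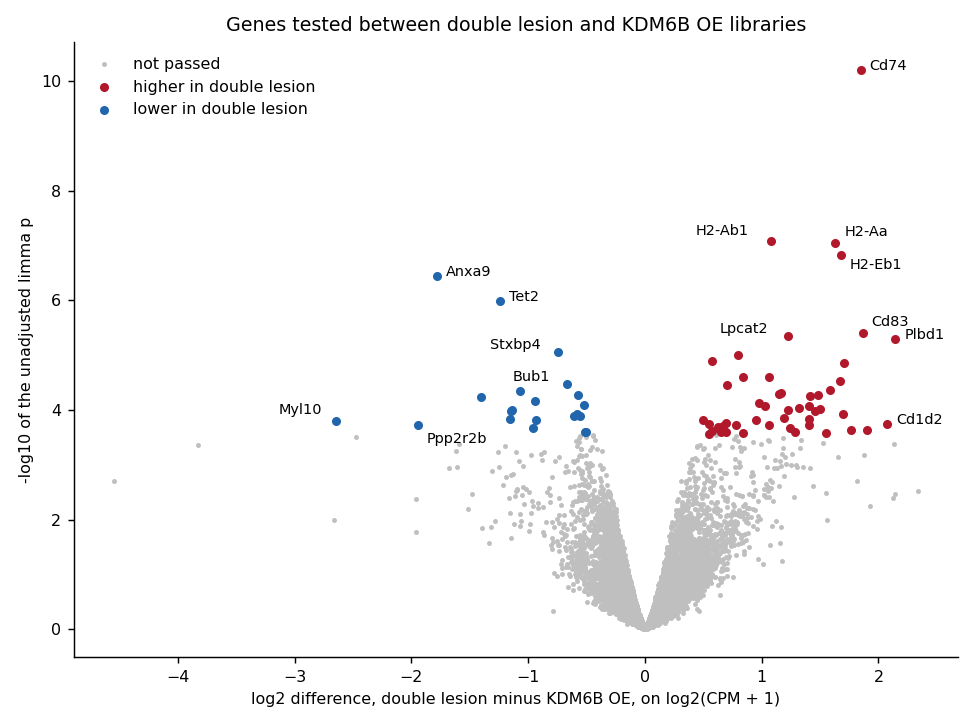
Each point is 1 gene tested, with the log2 difference (double lesion minus KDM6B OE, on log2(CPM + 1)) on the x axis and -log10 of the unadjusted limma p on the y axis. The 49 genes that passed higher are red and the 21 that passed lower are blue, and Cd74, H2-Ab1, H2-Aa and H2-Eb1 stand above all others.

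MHC class II molecules present peptides from endosomes to CD4+ T cells. They are made as pairs of alpha and beta chains around the invariant chain, and their genes are switched on together by the coactivator CIITA, which is recruited to a shared promoter module of X and Y boxes. Stem and progenitor cells express the genes at low levels, and professional antigen-presenting cells at high ones. Of the 11 genes of the pathway measured, 4 rose (0.387% of all genes tested were called higher) and 0 fell, the median log2 difference was 0.57 (against -0.013 over all genes), and in 10 every double lesion library was above every KDM6B OE library (against 9.0% of all genes).

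Cd74, the invariant chain, had 503, 504 and 554 CPM in double lesion cells, against 160, 151 and 123 CPM in KDM6B OE cells. That is 520 ± 29.0 and 145 ± 18.9 CPM (SD, n = 3 each), a log2 difference of 1.85 ± 0.0999 (SE; limma, adjusted p = 8.02e-07). The lowest double lesion library was more than 300 CPM above the highest KDM6B OE library. H2-Aa, the alpha chain of I-A, had 204, 189 and 153 CPM in double lesion cells, against 69.8, 63.8 and 43.0 CPM in KDM6B OE cells (log2 difference 1.63 ± 0.157, adjusted p = 0.000383). H2-Ab1, the beta chain of the same molecule, had 316, 328 and 258 CPM in double lesion cells, against 149, 147 and 128 CPM in KDM6B OE cells (1.08 ± 0.103, adjusted p = 0.000383). H2-Eb1, the beta chain of I-E, had 134, 140 and 108 CPM in double lesion cells, against 42.6, 49.2 and 28.1 CPM in KDM6B OE cells (1.68 ± 0.169, adjusted p = 0.000472). In all 4 genes the groups were separated by a wide gap, and the calls held with each library left out in turn and with a term for sex (adjusted p = 0.000151 for Cd74, 0.00329 for H2-Ab1, 0.00759 for H2-Aa and 0.00723 for H2-Eb1). With all 12 libraries in the fit none of the 4 passed (adjusted p = 0.284 to 0.369), and adding the Tet2 KO libraries alone took away the call of Cd74 (adjusted p = 0.132).

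The 7 other members were on the same side with smaller differences. Ciita, the coactivator, had 12.4, 9.78 and 5.76 CPM in double lesion cells, against 4.58, 4.96 and 2.30 CPM in KDM6B OE cells, and did not pass. H2-DMb1 and H2-DMb2, chains of the peptide-exchange factor, had 80.3 to 86.1 and 6.58 to 8.17 CPM in double lesion cells, against 62.2 to 67.2 and 3.55 to 5.53 CPM in KDM6B OE cells. These 2 genes are near-identical copies, so reads may be split between them. H2-Ob, a chain of the inhibitor of that factor, had 130 to 132 CPM in double lesion cells and 86.3 to 121 CPM in KDM6B OE cells. H2-DMa was the exception, with 286, 313 and 264 CPM in double lesion cells against 293, 293 and 270 CPM in KDM6B OE cells, so that its groups overlapped.

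**Figure D2:**
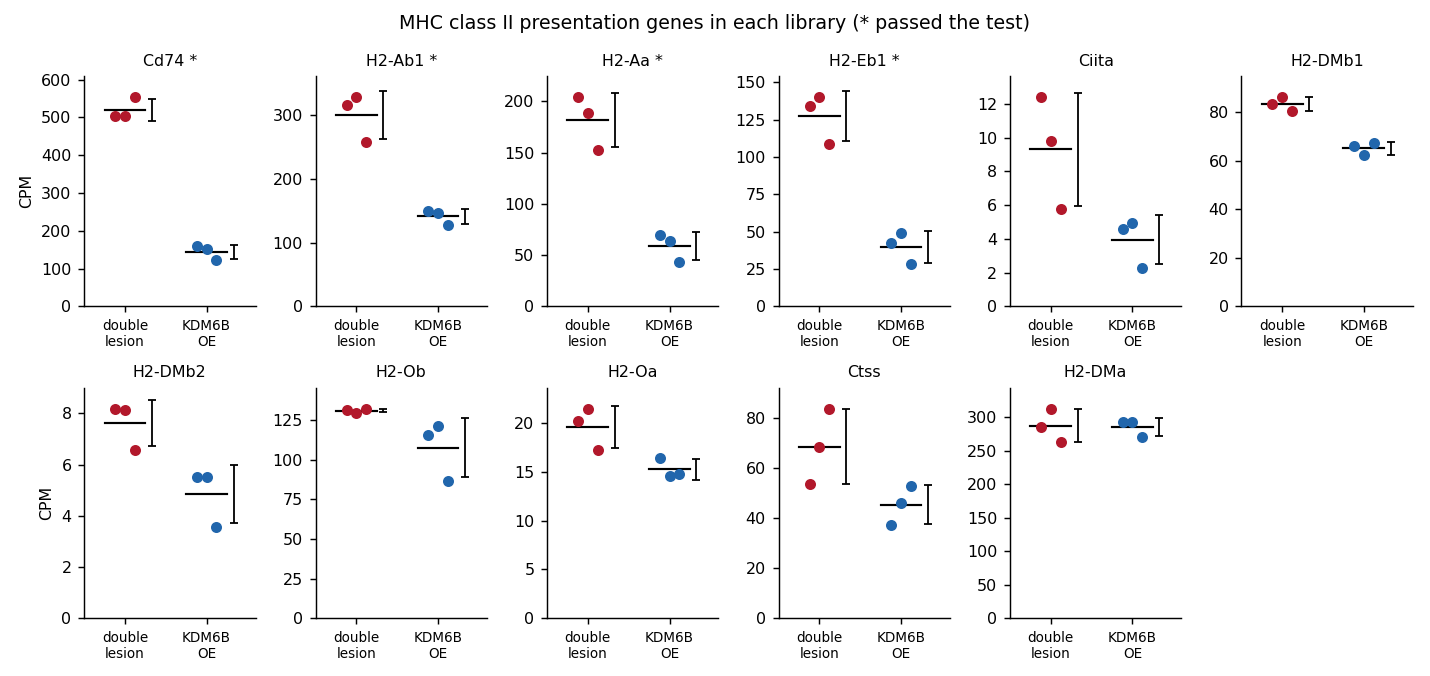
Each panel gives the CPM of 1 MHC class II presentation gene, with double lesion libraries (red) left of KDM6B OE libraries (blue), 3 each. Horizontal lines are means and bars 1 SD, and a star marks the 4 genes that passed the test. The groups are separate in every panel except that of H2-DMa, with 264 to 313 CPM in double lesion cells and 270 to 293 CPM in KDM6B OE cells.

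The promoters of H2-Aa and H2-Eb1 are shown because these genes moved together, with that of H2-DMb1, which did not pass, beside them. RefSeq promoter windows (GRCm38.p6) matched 8 of the 11 genes. Cd74, H2-Ab1 and Ciita had no window, so the promoters of Cd74 and H2-Ab1, which also passed, were not searched. Each sequence is the 80 bases from -110 to -31 of the annotated start, 5′ to 3′ along the gene. Capitals mark an X box core (CTNGNAAC) or a Y box (CTGATTGG), motifs chosen after the promoters were read and searched on both strands.
H2-Aa, chr17:34287854-34287933, minus strand: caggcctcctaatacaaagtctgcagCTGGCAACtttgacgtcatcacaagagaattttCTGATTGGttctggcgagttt
H2-Eb1, chr17:34305757-34305836, plus strand: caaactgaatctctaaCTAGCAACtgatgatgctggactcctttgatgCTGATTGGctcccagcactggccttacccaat
H2-DMb1, chr17:34153081-34153160, plus strand: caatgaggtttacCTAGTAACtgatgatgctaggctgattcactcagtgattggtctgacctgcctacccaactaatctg
Over the 200 bases before the start, 0.329% of all 32851 RefSeq promoter windows held both motifs, 8.97% the X box core and 3.54% the Y box. H2-Aa and H2-Eb1 held both, and H2-DMb1 and H2-Ob the X box core alone. H2-Oa held the Y box alone, and H2-DMa, H2-DMb2 and Ctss held neither. Only exact letters were counted, and H2-DMb1, H2-DMb2 and H2-Ob each hold a run that differs from the Y box in its first base alone. The lack of a match therefore does not set H2-DMb1 apart from the genes that passed. A match is a description of letters and not a measured site.

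Further genes that rose, gathered by their p-values and not as a list, included several that immune cells express. Cd83, a surface protein that stabilises MHC class II, had 8.69, 12.04 and 10.0 CPM in double lesion cells, against 1.23, 2.83 and 2.38 CPM in KDM6B OE cells (log2 difference 1.86 ± 0.25, limma adjusted p = 0.00701). Plbd1, a phospholipase B-like protein, had 27.3, 30.9 and 24.4 CPM in double lesion cells, against 7.22, 8.20 and 2.50 CPM in KDM6B OE cells (2.15 ± 0.294, adjusted p = 0.00701). In both genes the lowest double lesion library was far above the highest KDM6B OE library. Xcr1, the chemokine receptor of cross-presenting dendritic cells, had 7.42, 11.2 and 6.93 CPM in double lesion cells, against 2.55, 2.42 and 1.09 CPM in KDM6B OE cells (1.67 ± 0.271, adjusted p = 0.0234, and 0.0568 without double lesion 1). Pld4, an endosomal exonuclease, had 32.4, 44.6 and 29.8 CPM in double lesion cells, against 18.01, 17.1 and 14.1 CPM in KDM6B OE cells (adjusted p = 0.0212). Slamf7, a self-ligand receptor of immune cells, averaged 11.2 CPM in double lesion cells and 2.84 CPM in KDM6B OE cells (adjusted p = 0.0135, and 0.0592 without double lesion 3). Lpcat2, which makes platelet-activating factor, had 75.1, 72.4 and 58.2 CPM in double lesion cells, against 36.6, 21.7 and 29.2 CPM in KDM6B OE cells (adjusted p = 0.00701). Irf4, a transcription factor of dendritic and plasma cells, had 2.31, 3.70 and 2.80 CPM in double lesion cells, against 0.484, 0.246 and 0.546 CPM in KDM6B OE cells (adjusted p = 0.0359, and 0.116 without KDM6B OE 2), a gene named after its values were seen. Irf4 was tested only because all 3 double lesion libraries were over 1 CPM, so it could not be tested without any 1 of them and had to differ to be tested. Of the genes in this paragraph, Cd83 and Pld4 alone kept their calls with a term for sex.

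The genes just named were picked by their p-values, so the markers of these cells are also given as whole lists. Of 16 dendritic cell genes 1 rose (Xcr1, against 0.387% of all genes) and 0 fell, with a median log2 difference of 0.31 and 13 positive. In 7 every double lesion library was above every KDM6B OE library (against 9.0% of all genes), and in 0 every one was below. The list summed to 995 to 1065 CPM in double lesion cells and 887 to 971 CPM in KDM6B OE cells. Flt3, a receptor of progenitors too, was the largest part of it, at 425 to 478 CPM in double lesion cells and 415 to 490 CPM in KDM6B OE cells. The sum is therefore not a level of dendritic cells alone. Itgax, the CD11c chain that defines dendritic cells, had 3.13, 3.62 and 1.98 CPM in double lesion cells, against 0.925, 1.15 and 1.01 CPM in KDM6B OE cells. Clec9a, which marks the same cells as Xcr1, had 2.10 to 3.77 CPM in double lesion cells and 1.37 to 2.42 CPM in KDM6B OE cells, and neither passed. Siglech, a marker of plasmacytoid dendritic cells, was at or under 2.08 CPM in every library. In bulk RNA, more cells of a type and more RNA per cell cannot be told apart, and the part of such cells in the MHC class II result was not tested.

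Of 33 monocyte and macrophage genes 2 rose (against 0.387% of all genes) and 0 fell, with 30 positive, a median of 0.42 and a summed level of 2181 to 2834 CPM in double lesion cells and 1966 to 2291 CPM in KDM6B OE cells. Cybb, the oxidase subunit of phagocytes, had 16.6, 17.8 and 14.5 CPM in double lesion cells, against 4.45, 8.81 and 4.02 CPM in KDM6B OE cells (1.42 ± 0.244, adjusted p = 0.0276). It also stood as the only gene called of the 26 neutrophil granule genes (median 0.21), whose most abundant member Mpo had 2523, 4852 and 3000 CPM in double lesion cells and 2479, 2941 and 2049 CPM in KDM6B OE cells. Ms4a6b, a membrane protein, had 53.8 to 61.5 CPM in double lesion cells and 37.5 to 40.5 CPM in KDM6B OE cells (adjusted p = 0.0437). Both calls depend on single libraries: without double lesion 1, 2 or 3 or KDM6B OE 3 the adjusted p was 0.0535 to 0.0912 for Cybb, and without any 1 library but KDM6B OE 1 it was 0.0768 to 0.144 for Ms4a6b. Both were also lost with a term for sex. Csf1r, the macrophage growth factor receptor, overlapped between groups at 25.1, 53.6 and 19.4 CPM in double lesion cells and 21.8, 25.98 and 10.6 CPM in KDM6B OE cells.

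Genes of B cells were on the higher side at low levels. Of 19 tested, 2 rose (against 0.387% of all genes) and 0 fell, with 17 positive and a median of 0.75, and the list summed to 312 to 348 CPM in double lesion cells and 220 to 252 CPM in KDM6B OE cells. Cd79a, a signalling chain of the B cell receptor, had 14.7, 11.6 and 16.8 CPM in double lesion cells, against 3.52, 7.17 and 3.36 CPM in KDM6B OE cells (1.48 ± 0.255, adjusted p = 0.0276). Pou2af1, a coactivator of immunoglobulin genes, had 2.98, 6.68 and 10.6 CPM in double lesion cells, against 0.572, 1.11 and 1.72 CPM in KDM6B OE cells (adjusted p = 0.0484). The lowest double lesion library remained above the highest KDM6B OE library in both. The adjusted p reached 0.0535 to 0.0912 for Cd79a without double lesion 1 or 3 or KDM6B OE 3, and 0.0852 to 0.138 for Pou2af1 without double lesion 2 or 3 or KDM6B OE 1 or 2. Both calls were also lost with a term for sex. Pax5, the factor that fixes B cell identity, was at 0.522, 0 and 0.195 CPM in double lesion cells and at 0 CPM in all 3 KDM6B OE libraries. The part of B cells carried through the sort was not tested. None of 15 T and NK cell genes passed in limma or edgeR (2 at an unadjusted p under 0.05, 0 in DESeq2), with a median of 0.14, and Cd3e stayed at or under 1.43 CPM in every library.

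Eosinophil, mast cell and basophil genes differed in both directions, with log2 differences from -1.62 to 2.34. Of 25 tested, 4 rose (against 0.387% of all genes) and 0 fell, 21 were positive, and the median was 0.83. In 9 every double lesion library was above every KDM6B OE library (against 9.0% of all genes). In 2, Cma1 and Alox5ap, every one was below (against 9.87% of all genes). Cpa3, a mast cell protease, had 102, 95.7 and 94.2 CPM in double lesion cells, against 44.9, 44.5 and 78.4 CPM in KDM6B OE cells (log2 difference 0.84 ± 0.171, limma adjusted p = 0.0489). Hdc, which makes histamine, had 40.8, 38.0 and 25.1 CPM in double lesion cells, against 15.0, 12.4 and 20.9 CPM in KDM6B OE cells (1.06 ± 0.208, adjusted p = 0.0437). KDM6B OE 3 was the highest of its group for both genes. Scin, an actin-severing protein, averaged 11.5 CPM in double lesion cells and 3.90 CPM in KDM6B OE cells (adjusted p = 0.0352), and Alox15, a lipoxygenase of eosinophils, averaged 7.90 CPM in double lesion cells and 2.02 CPM in KDM6B OE cells (adjusted p = 0.0489).

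The mast cell proteases Cma1 and Tpsb2 lay on the other side from Cpa3 and did not pass, values chosen after they were seen. Cma1, a chymase, had 0.560, 1.17 and 0.156 CPM in double lesion cells, against 2.86, 2.46 and 7.53 CPM in KDM6B OE cells (log2 difference -1.62 ± 0.36, limma adjusted p = 0.0617). Tpsb2, a tryptase, had 0.746, 2.53 and 0.389 CPM in double lesion cells, against 1.98, 2.79 and 10.8 CPM in KDM6B OE cells (-1.32 ± 0.464, adjusted p = 0.226), and its groups overlapped. Mcpt8, Fcer1a and Ms4a2 of the same list, also chosen after their values were seen, lay on the side of Cpa3 and did not pass. Mcpt8 had 63.2, 74.0 and 63.9 CPM in double lesion cells, against 36.2, 20.7 and 55.5 CPM in KDM6B OE cells. Fcer1a had 37.4, 26.8 and 17.0 CPM in double lesion cells, against 9.51, 5.82 and 16.7 CPM in KDM6B OE cells. Ms4a2 had 10.9, 7.02 and 8.40 CPM in double lesion cells, against 4.71, 3.20 and 5.62 CPM in KDM6B OE cells. DESeq2 called 6 members of the list higher and 2 lower (over all 12653 genes, 194 and 147), and edgeR 0 in either direction.

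The eosinophil granule genes, by contrast, were spread over a wide range in double lesion cells and did not pass. Prg2, the major basic protein, had 2917, 980 and 374 CPM in double lesion cells, against 219, 104 and 538 CPM in KDM6B OE cells. Epx, the eosinophil peroxidase, had 1043, 368 and 118 CPM in double lesion cells, against 73.9, 27.2 and 167 CPM in KDM6B OE cells. For both, double lesion 1 was the highest library and KDM6B OE 3 exceeded double lesion 3. The list summed to 6035, 3027 and 1989 CPM in double lesion cells and 1651, 1250 and 2118 CPM in KDM6B OE cells, and the part of these cells in the other results was not tested. The number of members called was 0, 1 and 2 without double lesion 1, 2 or 3, and 1, 0 and 5 without KDM6B OE 1, 2 or 3. With a term for sex it was 0. Without 1 library the highest adjusted p was 0.162 for Cpa3, 0.145 for Hdc, 0.11 for Scin and 0.147 for Alox15, each without KDM6B OE 2, and none of these 4 calls held without double lesion 1.

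**Figure D3:**
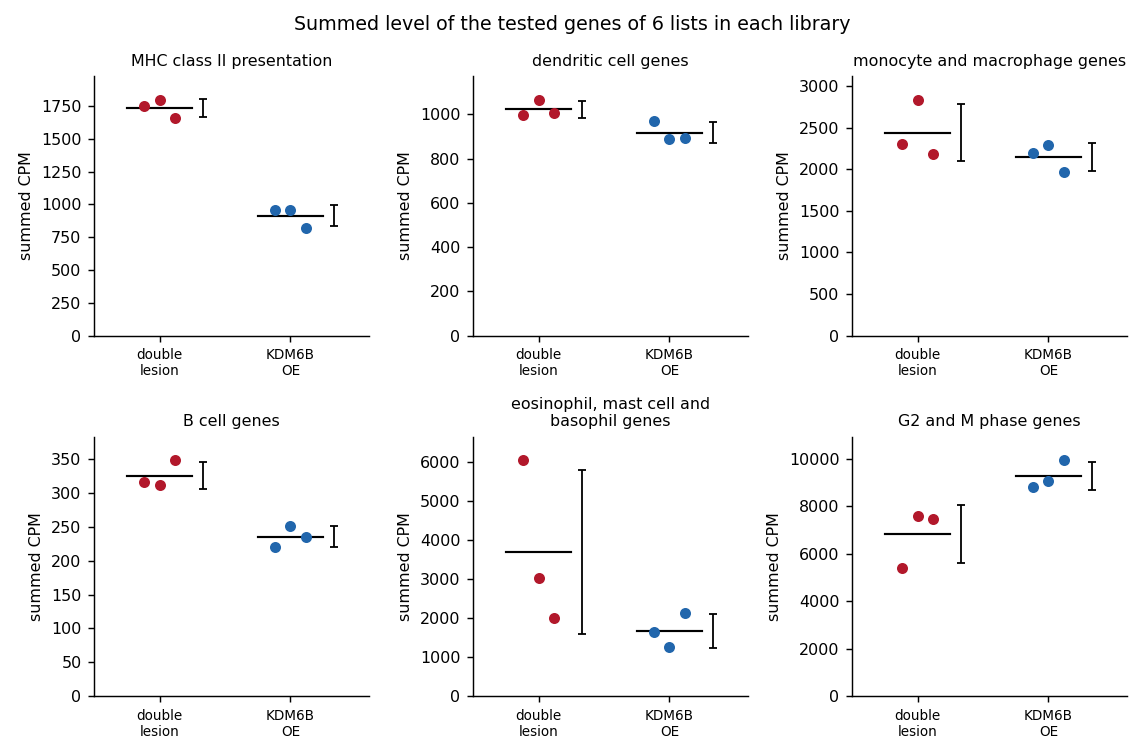
Each panel gives the summed CPM of the tested genes of 1 list, with double lesion libraries (red) left of KDM6B OE libraries (blue), 3 each, the mean as a line and 1 SD as a bar. The groups are separate for MHC class II, dendritic cell, B cell and G2 and M phase genes, and overlap for monocyte and macrophage genes and for eosinophil, mast cell and basophil genes.

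Genes of G2 and M phase were lower in double lesion cells as a list, each by a modest amount. All 45 measured had a negative log2 difference, with a median of -0.50 (against -0.013 over all genes) and values from -0.68 to -0.24, and in 39 every double lesion library was below every KDM6B OE library (against 9.87% of all genes). Of the 45, 2 passed the test (0.166% of all genes tested were called lower) and 44 had an unadjusted p under 0.05. Over all genes tested, 6651 of 12653 had a negative log2 difference. Members of a list were measured in the same 6 libraries and are not independent of each other. Bub1, the spindle checkpoint kinase, had 48.2, 58.1 and 63.0 CPM in double lesion cells, against 92.9, 86.0 and 90.6 CPM in KDM6B OE cells (-0.67 ± 0.11, adjusted p = 0.0249). Kif20a, a kinesin of the central spindle whose exons overlap Cdc23 on the other strand, had 89.9, 109 and 107 CPM in double lesion cells, against 134, 152 and 165 CPM in KDM6B OE cells (-0.55 ± 0.105, adjusted p = 0.0403). The groups did not overlap in either gene. The call of Bub1 was lost without double lesion 1 (adjusted p = 0.0543) or KDM6B OE 2 (0.0535), and that of Kif20a without double lesion 1 or 3 or KDM6B OE 2 or 3 (0.0646 to 0.128). Both calls were also lost with a term for sex.

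The proliferation marker Mki67 had 249, 354 and 336 CPM in double lesion cells, against 448, 450 and 467 CPM in KDM6B OE cells, and missed the threshold (adjusted p = 0.0502). Ccnb1, the mitotic cyclin, had 126, 208 and 194 CPM in double lesion cells, against 231, 245 and 283 CPM in KDM6B OE cells (adjusted p = 0.136), and Ube2c, which drives exit from mitosis, had 76.7, 137 and 122 CPM in double lesion cells, against 160, 180 and 183 CPM in KDM6B OE cells (adjusted p = 0.0808). These 3 genes were chosen after their values were seen. Double lesion 1 was the lowest library in each, and the list summed to 5408, 7574 and 7463 CPM in double lesion cells and 8807, 9083 and 9935 CPM in KDM6B OE cells. The number of members called was 0, 8 and 1 without double lesion 1, 2 or 3 and 6, 0 and 1 without KDM6B OE 1, 2 or 3, while the median stayed between -0.58 and -0.34 in every alternative run. DESeq2 called 28 members lower and edgeR 1 (over all 12653 genes, 147 and 9). Of the 46 S phase genes 0 passed in limma or edgeR (16 at an unadjusted p under 0.05, 3 lower in DESeq2), with a median of -0.16. Cit, the citron kinase of cytokinesis, fell outside the lists, with 39.5, 50.5 and 49.6 CPM in double lesion cells against 67.5, 72.3 and 73.5 CPM in KDM6B OE cells (adjusted p = 0.0403, and 0.0634 to 0.129 without double lesion 1 or 3 or KDM6B OE 2 or 3). It was named after its values were seen.

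**Figure D4:**
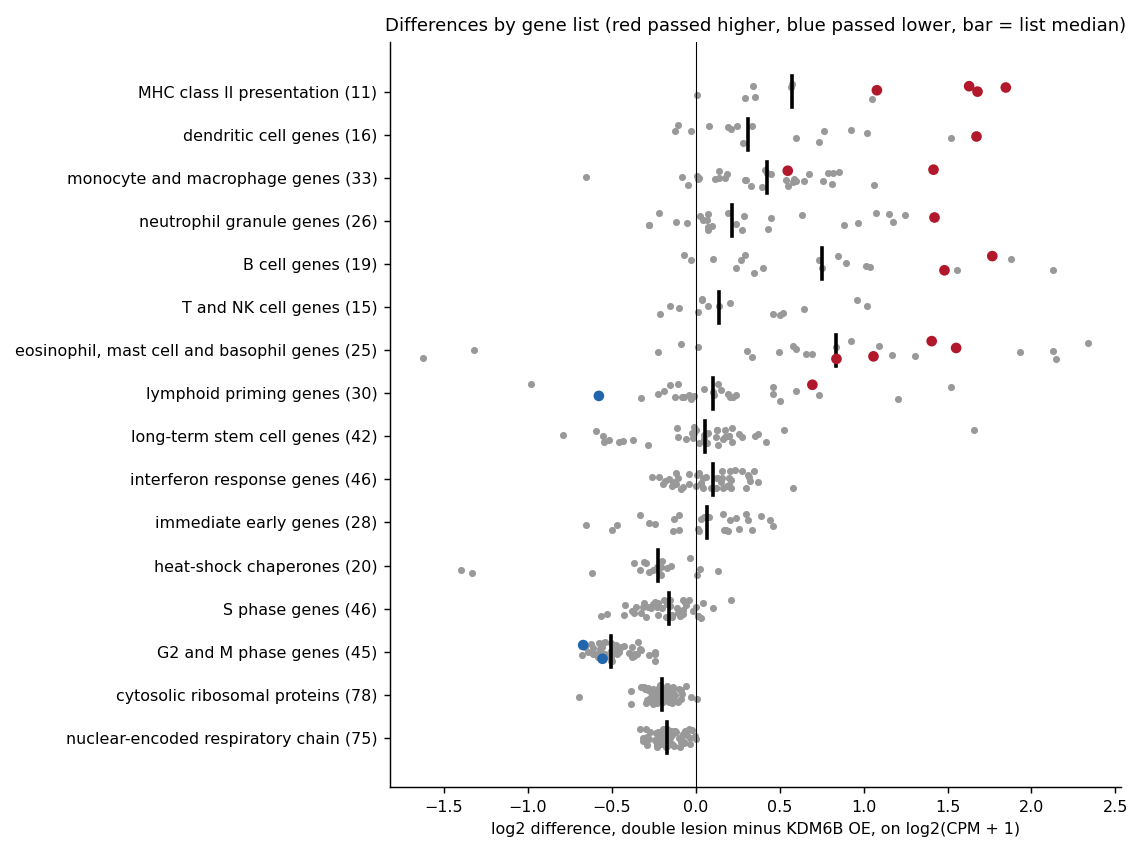
Each point is 1 tested gene of a list, with its log2 difference (double lesion minus KDM6B OE, on log2(CPM + 1)) on the x axis, the number of genes tested in brackets and a black bar at the list median. Red points passed higher and blue points lower. The G2 and M phase list lies wholly below 0 with a median of -0.50, and the MHC class II list wholly above 0 with a median of 0.57.

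Among 30 genes of lymphoid priming, 1 fell and 1 rose (against 0.166% and 0.387% of all genes), with a median of 0.10. Dntt, the terminal transferase of early lymphoid progenitors, had 482, 430 and 434 CPM in double lesion cells, against 607, 642 and 767 CPM in KDM6B OE cells (-0.58 ± 0.0989, limma adjusted p = 0.0276). Cd52, a small surface glycoprotein of lymphocytes, had 79.1, 68.3 and 59.3 CPM in double lesion cells, against 42.3, 34.9 and 49.8 CPM in KDM6B OE cells (0.70 ± 0.141, adjusted p = 0.0486). The groups were separate in both. The adjusted p of Dntt was 0.0619 to 0.0802 without double lesion 2 or 3 or KDM6B OE 2, and that of Cd52 was 0.0592 to 0.162 without any 1 library but KDM6B OE 3. Flt3, the receptor of lymphoid-primed progenitors, overlapped at 425 to 478 CPM in double lesion cells and 415 to 490 CPM in KDM6B OE cells.

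Tet2 lies on chromosome 3, and a share of the changed genes lay there with it. Chromosome 3 held 11 of the 70, Tet2 among them. That is 1.89% of its 583 genes tested, against 0.489% of the other genes. Of the 11, 10 lay in the span from 60 megabases before the start of Tet2 to 20 after it, where 10 of 410 genes passed (2.44%) and the groups did not overlap in 23.9% of genes (against 18.9% of all genes). The other was Cpa3, at -113 megabases. The span was chosen after the positions of the changed genes were seen.

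Anxa9, an annexin, lies at -38.2 megabases from Tet2 and had 5.41, 4.23 and 5.64 CPM in double lesion cells, against 17.7, 23.8 and 18.5 CPM in KDM6B OE cells (-1.78 ± 0.193, limma adjusted p = 0.000895). Its exons overlap Mindy1 on the other strand and 6330562C20Rik on its own. Alpk1, a kinase that senses a bacterial sugar, lies at -5.76 megabases and had 57.8, 54.4 and 46.2 CPM in double lesion cells, against 33.9, 9.83 and 6.83 CPM in KDM6B OE cells (1.90 ± 0.382, adjusted p = 0.0484). Cd1d2, a copy of the lipid-presenting gene Cd1d1 that is annotated as a polymorphic pseudogene, lies at -46.6 megabases and had 39.2, 39.3 and 31.7 CPM in double lesion cells, against 21.7, 3.81 and 5.54 CPM in KDM6B OE cells (2.07 ± 0.404, adjusted p = 0.0437). In Alpk1 and Cd1d2, KDM6B OE 1 stood between the double lesion libraries and the other 2 of its group.

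Fam102b showed the same order, with 65.8, 71.2 and 70.0 CPM in double lesion cells against 48.3, 23.9 and 20.9 CPM in KDM6B OE cells (1.22 ± 0.224, adjusted p = 0.0359). So did A930005H10Rik, with 56.3, 60.5 and 58.4 CPM in double lesion cells against 39.2, 19.6 and 21.4 CPM in KDM6B OE cells (1.17 ± 0.199, adjusted p = 0.0276). Cd1d1, which may share reads with Cd1d2, had 154, 162 and 140 CPM in double lesion cells, against 106, 82.4 and 76.4 CPM in KDM6B OE cells (0.79 ± 0.116, adjusted p = 0.0116). The remaining changed genes of the span, besides Tet2 itself, were Pbxip1, which was higher, and Frrs1 and Cers2, which were lower. In 9 of the 10 genes of the span KDM6B OE 1 was the library of its group nearest to the double lesion mean, as it was for 30 of the 59 changed genes off chromosome 3.

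In Tet2 KO against Vav Cre cells, which share no library with this comparison, the same 10 genes differed in the same direction. Tet2, the floxed gene of both comparisons, is 1 of the 10. Off chromosome 3, all 42 higher changed genes and 12 of the 17 lower ones also kept their direction. Alpk1 averaged 38.1 ± 11.8 CPM in Tet2 KO and 10.3 ± 1.85 CPM in Vav Cre cells (SD, n = 3 each), Fam102b 56.5 ± 13.3 CPM in Tet2 KO and 22.3 ± 1.82 CPM in Vav Cre cells, and Anxa9 7.22 ± 5.11 CPM in Tet2 KO and 21.7 ± 5.94 CPM in Vav Cre cells. The log2 differences of Alpk1, Fam102b and Anxa9 in double lesion against KDM6B OE cells were 1.90, 1.22 and -1.78, beside 1.76, 1.28 and -1.60 in Tet2 KO against Vav Cre cells. Cpa3, outside the span, had a log2 difference of 0.066 there and of 0.84 here. The share called on chromosome 3 was 2.99% without KDM6B OE 1 (0.762% elsewhere) and 0.696% without KDM6B OE 3 (0.493% elsewhere). The number of genes called on chromosome 3 was 3, 5 and 4 without double lesion 1, 2 or 3, and 17, 3 and 4 without KDM6B OE 1, 2 or 3. With a term for sex it was 1 (Anxa9). The calls of Alpk1, Cd1d2, Fam102b and Cers2 were lost without any 1 library but KDM6B OE 1 (adjusted p up to 0.147, 0.123, 0.116 and 0.176), that of Pbxip1 without any 1 library (up to 0.172), and those of A930005H10Rik and Frrs1 without any 1 library but double lesion 2 or KDM6B OE 1 (up to 0.0835 and 0.129). All libraries are labelled as one strain, the origin of the DNA around the floxed allele is not given in the sources used here, and its part in these differences was not tested.

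**Figure D5:**
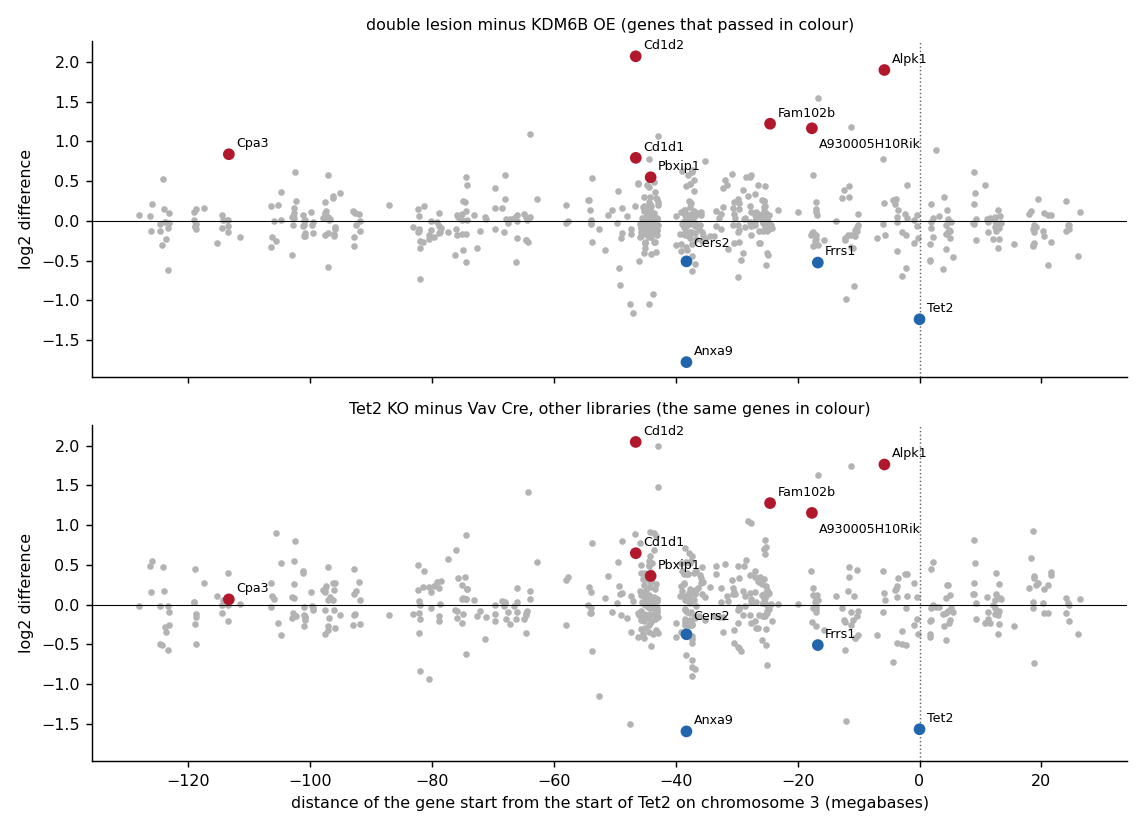
Each point is 1 of the 583 genes tested on chromosome 3, with the distance of its start from that of Tet2 in megabases on the x axis and its log2 difference on the y axis, above for double lesion minus KDM6B OE and below for Tet2 KO minus Vav Cre. Genes that passed in the upper comparison are red (higher) or blue (lower) in both panels. Of these 11, 10 lie between -46.6 megabases and the start of Tet2, with Tet2 counted among them.

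Outside these groups, 7 further named genes fell, each with a log2 difference under -1. Vegfa, the vascular growth factor, had 11.6, 13.1 and 14.2 CPM in double lesion cells, against 23.3, 44.5 and 25.7 CPM in KDM6B OE cells (-1.15 ± 0.211, limma adjusted p = 0.0359). Pygm, the muscle glycogen phosphorylase, had 26.3, 16.3 and 20.6 CPM in double lesion cells, against 42.8, 55.5 and 37.3 CPM in KDM6B OE cells (-1.07 ± 0.181, adjusted p = 0.0276). Myl10, a myosin light chain, had 14.1, 72.4 and 15.9 CPM in double lesion cells, against 196, 289 and 79.1 CPM in KDM6B OE cells (-2.65 ± 0.51, adjusted p = 0.0418). The margin was narrow in Myl10, where double lesion 2 came close to KDM6B OE 3.

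Col1a2, a collagen chain, had 1.68, 2.87 and 1.79 CPM in double lesion cells, against 6.34, 8.97 and 6.36 CPM in KDM6B OE cells (-1.41 ± 0.244, adjusted p = 0.0283). Ppp2r2b, a regulatory subunit of phosphatase 2A, had 0.0746, 0.830 and 0.350 CPM in double lesion cells, against 2.47, 9.47 and 3.20 CPM in KDM6B OE cells (-1.95 ± 0.382, adjusted p = 0.0437). It was over 1 CPM in the KDM6B OE libraries alone, so that it passed the filter through the group where it is high and could not be tested without any 1 of them. Bcam, a laminin receptor, averaged 4.55 CPM in double lesion cells and 11.2 CPM in KDM6B OE cells, and Uchl1, a ubiquitin hydrolase, averaged 3.25 CPM in double lesion cells and 8.57 CPM in KDM6B OE cells. Each of these 7 calls was lost without at least 1 library, with adjusted p up to 0.0963 for Pygm (without double lesion 3 or KDM6B OE 2), 0.103 for Vegfa (without any 1 double lesion library or KDM6B OE 2), 0.116 for Col1a2 (without double lesion 1 or 3 or KDM6B OE 2), 0.125 for Uchl1 (without any 1 library but double lesion 2), 0.129 for Bcam (without double lesion 1 or 3 or KDM6B OE 2 or 3), 0.129 for Myl10 (without double lesion 1 or 3 or KDM6B OE 1 or 2) and 0.13 for Ppp2r2b (without double lesion 1 or 3). Thbs1, thrombospondin, did not pass: it had 0.373, 3.17 and 0.233 CPM in double lesion cells, against 39.8, 109 and 3.51 CPM in KDM6B OE cells (adjusted p = 0.0585, 0.0469 without double lesion 2 and 0.000334 without KDM6B OE 3). Creb5 (-2.48, adjusted p = 0.0502) and Lmo7 (-1.59, adjusted p = 0.0584) were likewise just outside the threshold, and both passed without KDM6B OE 3 (adjusted p = 0.000547 and 0.0214).

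Among genes that were higher, Itga1, the collagen-binding integrin chain, had 4.48, 2.79 and 3.38 CPM in double lesion cells, against 0.660, 0.287 and 0.585 CPM in KDM6B OE cells (1.58 ± 0.267, limma adjusted p = 0.0276, and 0.0812 without KDM6B OE 2). It was over 1 CPM in the double lesion libraries alone, so that it passed the filter through the group where it is high and could not be tested without any 1 of them. Hvcn1, a proton channel of immune cells whose exons overlap Tctn1 on the other strand, had 11.9 to 13.9 CPM in double lesion cells and 4.34 to 6.43 CPM in KDM6B OE cells (adjusted p = 0.0276, and 0.0503 to 0.0951 without any 1 double lesion library or KDM6B OE 2). Psap, which encodes the saposin precursor, was the only one called of 35 lysosome genes (median 0.031, with 0.387% of all genes called higher). Psap had 551, 665 and 606 CPM in double lesion cells against 465, 381 and 297 CPM in KDM6B OE cells (adjusted p = 0.0437, and 0.0733 to 0.116 without any 1 library but KDM6B OE 1). Stxbp4, a syntaxin-binding protein, was the gene with the smallest p-value among the lower genes off chromosome 3, with 98.2, 106 and 83.3 CPM in double lesion cells against 149, 154 and 179 CPM in KDM6B OE cells (-0.74 ± 0.107, adjusted p = 0.0112), and was named after its values were seen. Its groups were well apart, and its call was lost with a term for sex.

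Genes of DNA methylation and histone methylation other than Tet2 did not pass. Of 20 DNA methylation enzymes 1 fell (against 0.166% of all genes), Tet2 itself, with a median of -0.027. Of 38 driver genes of myeloid neoplasms the same gene alone fell (against 0.166% of all genes), with a median of -0.034. None of 18 enzymes of H3K27 methylation passed in limma, edgeR or DESeq2 (2 at an unadjusted p under 0.05). Kdm6a, the X-linked relative of KDM6B, had 67.0, 92.2 and 54.4 CPM in double lesion cells and 95.6, 102 and 81.3 CPM in KDM6B OE cells. Its low libraries, double lesion 1 and 3, are those with Y-linked transcripts.

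Inflammatory and stress programs showed no called member. Of 46 interferon response genes 0 passed (7 at an unadjusted p under 0.05), with a median of 0.11, led by Iigp1 at 81.6 CPM in double lesion and 54.5 CPM in KDM6B OE cells. Of 31 NF-kB and innate immune genes 0 passed (5), with a median of 0.14, and Irak2, an adaptor of Toll-like receptors, was nearest at 29.6 CPM in double lesion and 16.8 CPM in KDM6B OE cells (adjusted p = 0.0547, and 0.0242 without KDM6B OE 1). Of 28 immediate early genes 0 passed (1), with a median of 0.067, and of 20 heat-shock chaperones 0 passed (7), with a median of -0.22. Hspa1a, an inducible chaperone, had 6.53, 9.10 and 14.9 CPM in double lesion cells, against 10.7, 78.8 and 22.6 CPM in KDM6B OE cells, so that KDM6B OE 2 stood apart. DESeq2 called 1 immediate early, 1 NF-kB and 2 interferon response genes higher, and edgeR none of these lists.

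The following stem cell and lineage lists had medians from -0.11 to 0.20 and 0 genes past the limma test. Over all 12653 genes tested, 1770 had an unadjusted p under 0.05. Of 42 long-term stem cell genes 0 passed in limma or edgeR (13 at an unadjusted p under 0.05, 3 in DESeq2), with a median of 0.058. Of 38 haematopoietic transcription factors 0 passed (6 at an unadjusted p under 0.05, 1 in DESeq2), with Hoxa9 at 89.5, 96.2 and 121 CPM in double lesion cells against 142, 133 and 145 CPM in KDM6B OE cells (adjusted p = 0.0803, and 0.0385 without double lesion 3). The medians of the megakaryocyte (25 tested), erythroid and haem synthesis (29), cytokine receptor (39) and adhesion and homing (26) lists were 0.040, -0.11, 0.19 and -0.023. In these 4 lists 0 passed in limma or edgeR, with 7, 3, 11 and 5 members at an unadjusted p under 0.05 and 4, 1, 3 and 3 called by DESeq2 in either direction. The 8 LSK markers had a median of -0.013 and 0 passed in limma, edgeR or DESeq2 (3 at an unadjusted p under 0.05), and the 9 lineage gate markers tested had a median of 0.20 and 0 passed in the same 3 tools (3).

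Growth and metabolic lists had 0 genes past the test, and the ribosomal protein and respiratory chain lists lay below 0 almost throughout. Over all 12653 genes tested, 6651 had a negative log2 difference. Of 78 ribosomal protein genes 77 had a negative log2 difference, and in 52 every double lesion library was below every KDM6B OE library (against 9.87% of all genes), with a median of -0.20 and 0 passed in limma or edgeR (41 at an unadjusted p under 0.05, 5 lower in DESeq2). Of 75 genes of the respiratory chain 74 were negative, and in 20 every double lesion library was below, with a median of -0.17 and 0 passed (18 at an unadjusted p under 0.05, 0 in DESeq2). Of 44 replication-dependent histone genes, 32 were positive, with a median of 0.28 and 0 passed in limma or edgeR (16 at an unadjusted p under 0.05, 3 in DESeq2), a list that includes near-identical copies. The medians of the ribosome biogenesis (39), p53 target and apoptosis (32), integrated stress (32), TGF-beta and SMAD (26), SOCS and STAT5 target (25), cholesterol synthesis (24) and glycolysis (22) lists were -0.060, 0.0098, 0.026, 0.074, 0.0028, 0.21 and -0.026, with 5, 3, 4, 6, 4, 9 and 6 members at an unadjusted p under 0.05 and 0 called by limma or edgeR. DESeq2 called 0, 0, 0, 1, 1, 3 and 1 of them.

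The direction of the changed genes was compared with Tet2 KO against Vav Cre cells, in which Tet2 is lost without the transgene and both groups carry Cre. All 49 genes that were higher in double lesion cells also had a positive log2 difference there, against 67.8% of all tested genes with a positive difference here and 74.4% of those with separate groups that did not pass. Of the 21 lower genes, 16 (76.2%) were negative there, against 58.2% and 70.6%. Some of the 49 were near 0 there, such as Scin (0.016), Itga1 (0.035) and Cpa3 (0.066). By mean CPM, Itga1 was lower in Tet2 KO (1.06) than in Vav Cre cells (1.23). For the 42 higher genes off chromosome 3 the median log2 difference was 0.65 there and 1.24 here. A limma test of the difference between the 2 comparisons, over all 12 libraries, found 0 genes past the threshold (578 at an unadjusted p under 0.05). Cd74 averaged 549 ± 456 CPM in Tet2 KO and 215 ± 86.8 CPM in Vav Cre cells, a wide spread beside that of double lesion cells. Col1a2 went against the direction, at 6.24 CPM in Tet2 KO and 1.79 CPM in Vav Cre cells, with a difference of differences of -2.89 (unadjusted p = 0.000173).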

How the data were processed

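RNA from sorted bone marrow LSK cells (10 to 20 ng) was made into libraries with SMARTer v4 and Nextera kits, per the labels' protocols. Per the submitters' processing notes the tools were TopHat2 2.0.10, HTSeq 0.6.0 and edgeR 3.8.6, with build mm10; gene annotation and counting strand are not stated there. The deposited values are a normalised signal per gene, CPM, counts scaled by library, over edgeR's effective library size. 100% of values were whole reads within 1e-06, so reads were recovered for the count tests. The main test was limma 3.58.1 with a trend on log2(CPM + 1) over the 6 libraries (4 residual degrees of freedom), for genes over 1 CPM in at least 3, with Benjamini-Hochberg adjustment over all 12653 genes. On this scale fold changes of low genes are understated. edgeR 4.0.16 and DESeq2 1.42.0 were alternatives. Named genes were the 12 with the smallest p per direction past the threshold, with a log2 difference of at least 1 in size and groups that did not overlap. Where fewer passed, they were filled by unadjusted p under the same conditions. Sex-linked check genes and genes with Gm or Rik names were left out of this choice. Per list, up to 4 that passed were named, or otherwise the 2 with the smallest p. Gene lists, comparison and members were chosen with earlier results of these data known. Same-numbered libraries had deviations correlated at 0.183, 0.0607 and 0.0367, so numbers were not taken as pairs. Libraries of a group differed by far more than sampling noise. Positions are from GENCODE for mm10, in which 14742 of 15366 genes matched by symbol.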

Additional observations from a re-analysis of the deposited data

How the results depend on the processing

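The 70 calls (49 higher, 21 lower) kept their direction wherever they could be tested under all 15 planned and 3 later alternatives, the latter chosen after seeing the data, but their number did not hold. No filter left 14 calls (11 higher, 3 lower), a term for sex 13 (10 and 3), edgeR 29 (20 and 9) and DESeq2 341 (194 and 147). Rescaling to equal totals left 13 lower. All 12 libraries in limma or edgeR, and adding the Vav Cre libraries, left 0 (0 and 0), and adding the Tet2 KO libraries 5 (4 and 1). Without 1 library the count was 20 to 108, with 14 to 72 higher and 4 to 36 lower. The replicate block gave 277 (137 higher, 140 lower), and 70 of them were the reported ones, although the numbers were not shown to pair the libraries. Tet2 did not pass with all 12 libraries (-1.24, adjusted p = 0.129), a sex term (-1.14, 0.0634), the Vav Cre libraries (-1.24, 0.0878) or edgeR on all 12 (-1.26, 0.159). Kdm6b, never called, ran from -0.12 to 0.19 without 1 library and was below 0 without double lesion 2 (-0.061) or KDM6B OE 2. The cause of these shifts was not tested, except that fewer libraries, or noisier ones, enter some fits. Among named genes other than Tet2 and Kdm6b, 1120 alternative values kept their sign and side of the threshold, 298 lost and 70 gained a call. At this depth 3 reads, the limit a count of 0 allows, are at most 0.132 CPM here.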
